A study of Mus musculus with 6 samples.

Results

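The 33 genes described here encode the enzymes of glycolysis, fructose breakdown and the pentose phosphate pathway, and were read by symbol from the 45777 genes of a count table. They comprise 22 glycolytic genes, 2 of fructolysis and 9 of the pentose phosphate pathway. The table comes from total RNA sequencing of 6 samples of mouse small intestine. In 3 control libraries the label is GFP (green fluorescent protein), and in the other 3 it is PKCzeta overexpression. PKCzeta is the atypical protein kinase C that Prkcz encodes. All 6 titles also carry DIO, a term left undefined in the labels, and the labels give no strain, age, time, vector or promoter for the overexpression. The study sought genes that differ with Prkcz overexpression, and its title places atypical PKC beside the glucose transporter GLUT1 and gastric bypass. The labels do not say that each library is a separate animal, so p-values may measure only the spread between these samples.

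Glycolysis splits glucose into pyruvate, which lactate dehydrogenase can turn into lactate. Hexokinases trap glucose as glucose 6-phosphate, phosphofructokinase makes the committed step, and pyruvate kinase closes the chain. The pentose phosphate pathway branches off at glucose 6-phosphate and yields NADPH in its oxidative arm and ribose 5-phosphate for nucleotides. The small intestine also phosphorylates dietary fructose with ketohexokinase, and enterocytes, the absorptive cells, carry much of this.

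Total counts ran from 77573133 to 93742978 per library. Prkcz, the gene named as overexpressed, had CPM (counts scaled to a common library size) of 70.5, 98.6 and 96.9 under the GFP label against 82.5, 100.1 and 57.0 under the PKCzeta label. Its groups overlapped, at a log2 difference of -0.15 (SE 0.24; adjusted p in edgeR 0.950), so the groups below are called by their labels. Transcripts of a mouse Prkcz transgene would count here only where they match the counted gene model, which was not tested. Mitochondrial genes took 9.08%, 3.37% and 10.7% of counts in GFP libraries 1-1, 1-4 and 3-1, and 9.19%, 5.67% and 2.92% in PKCzeta libraries 2-1, 4-1 and 4-2. Enterocyte markers were abundant in all 6 libraries, but their summed CPM was 47705, 43309 and 39124 in the GFP group but 27272, 33275 and 15965 in the PKCzeta group. All 14 of those markers had lower fitted levels with the PKCzeta label, against 45.7% of all tested genes. At an unadjusted p under 0.05 in edgeR, 9 of the 14 were lower, against 3.07% of all tested genes. None passed an adjusted p of 0.05 (smallest 0.858 in edgeR). In bulk tissue, fewer cells of a type and less RNA per cell cannot be told apart. Below, 6 values in a row follow the order GFP 1-1, 1-4, 3-1, then PKCzeta 2-1, 4-1, 4-2.

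Levels of different genes were compared in TPM, which is scaled to transcript length. Ldha, which encodes the muscle-type lactate dehydrogenase subunit, had the highest mean TPM of the 33 genes, at 609 over the 6 libraries (range 516 to 742). Taldo1, the transaldolase of the non-oxidative pentose phosphate arm, followed at 434 (355 to 523), then Aldoa at 327 (236 to 452) and Tpi1, triose phosphate isomerase, at 313 (249 to 467). The ranges of neighbours in this order overlap across libraries, but Taldo1 was above Aldoa and Tpi1 in each of the 6 libraries. At the other end stood Hk3, the hexokinase known from myeloid cells, at 0.433 (0.196 to 0.818), and Eno2, the neuronal enolase, at 0.555 (0.241 to 1.15). Pfkm, the muscle phosphofructokinase, had a mean TPM of 1.74 and Aldoc, the brain aldolase, of 2.78. All 4 stood below another of the 33 genes of the same step. Together the 33 genes took 0.491%, 0.701% and 0.447% of counts in the GFP group, against 0.520%, 0.537% and 0.634% in the PKCzeta group. Those shares overlapped between the labels, and GFP 1-4 held the highest.

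**Figure D1:**
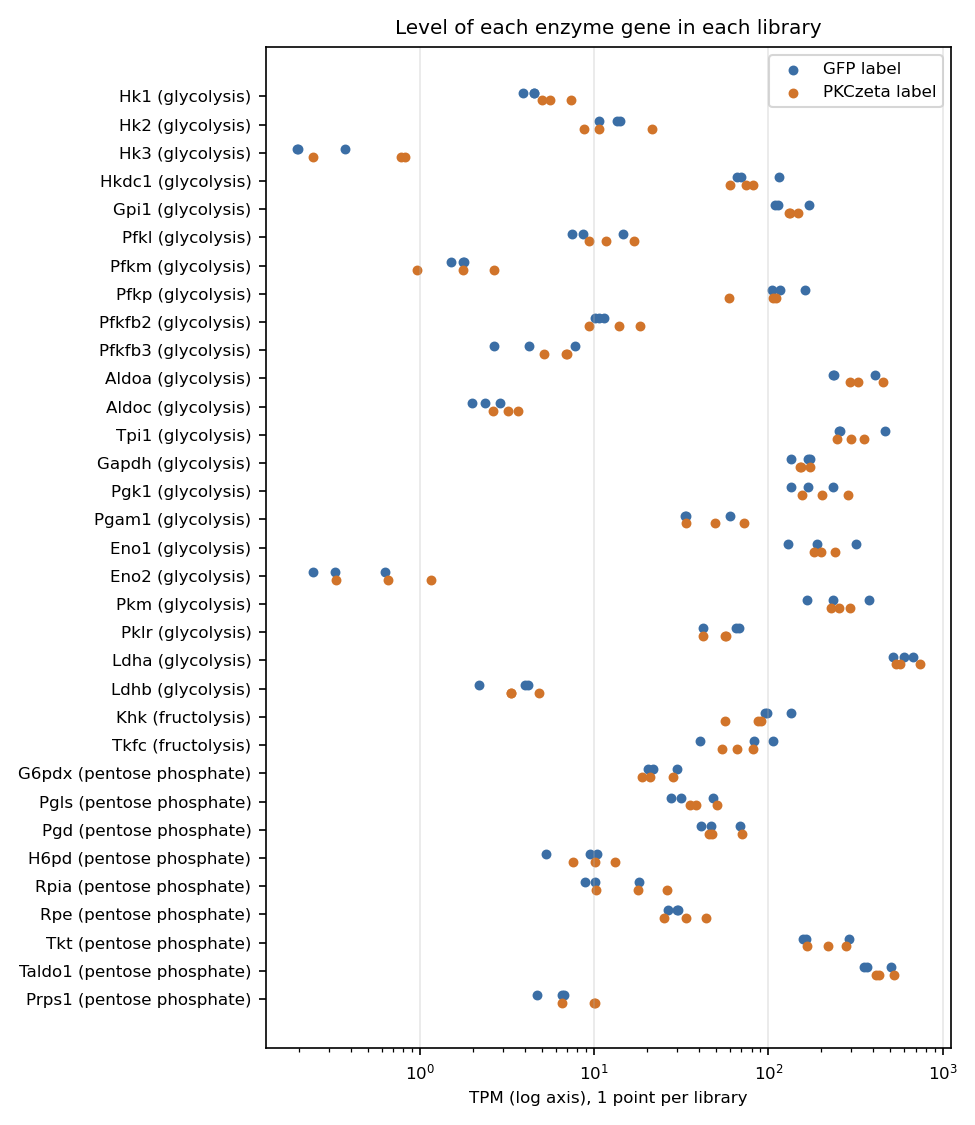
Level of each of the 33 genes in TPM (horizontal, log axis), with 1 point per library, blue for the GFP label and orange for the PKCzeta label. Ldha lies between 516 and 742 TPM, while Hk3 lies between 0.196 and 0.818.

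The letters before an annotated start are shown for 3 of the 6 genes whose counts did not overlap between the labels (below). Khk and Ldha are those of the 6 with a match to CACGTG or ACGTG, and Hkdc1, the leading hexokinase, is shown as 1 of the 4 without. These letters were searched because carbohydrate response factors and hypoxia factors, known regulators of glycolytic genes, bind elements built around CACGTG-like or ACGTG-like letters. Sequences are from RefSeq, build GRCm38.p6 (the assembly that mm10 names), 5′ to 3′ on the gene's strand, each from the 250 bases before 1 annotated start, and the capitals mark CACGTG. In Ldha they also mark 1 further match to ACGTG, which lies on the other strand. For Khk, 30 bases around the match at 71 to 66 bases before the start are shown, at chr5:30921476-30921505 on the plus strand. They lie inside the annotated gene, in exonic sequence of a transcript that starts further upstream (GENCODE vM21). Ldha is given as 250 bases at chr7:46845554-46845803 on the plus strand, with CACGTG at 145 and at 48 bases before the start. Hkdc1 is given as 216 bases at chr10:62422492-62422707 on the minus strand, where neither set of letters was found. The 34 exonic bases next to its start are not shown. The Ldha and Hkdc1 stretches also lie inside the RefSeq span of their genes, which begins at another start further upstream.
Khk: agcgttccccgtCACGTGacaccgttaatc
Ldha: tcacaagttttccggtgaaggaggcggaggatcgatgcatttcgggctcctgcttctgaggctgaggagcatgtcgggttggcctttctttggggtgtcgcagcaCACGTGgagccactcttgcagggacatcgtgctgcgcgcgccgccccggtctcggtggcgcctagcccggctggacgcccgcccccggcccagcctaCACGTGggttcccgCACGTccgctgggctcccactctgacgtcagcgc
Hkdc1: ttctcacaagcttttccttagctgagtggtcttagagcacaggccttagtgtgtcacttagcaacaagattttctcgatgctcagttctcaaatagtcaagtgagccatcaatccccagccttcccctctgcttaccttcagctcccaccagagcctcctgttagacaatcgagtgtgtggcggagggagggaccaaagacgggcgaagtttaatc
Over the 250 bases before each annotated start, CACGTG on either strand was in 5 of 49 windows of the 33 genes (Khk, Ldha, Pfkfb2, Pfkfb3 and Pfkm) and in 6.02% of all 32851 promoters. ACGTG, which CACGTG contains, was in 15 of the 49 windows and in 16.6% of all promoters. GCGTG was in 25 of the 49 windows, among them windows of Hk1, Pfkp, Ldha and G6pdx, and in 28.2% of all. A match describes the letters only, and no binding was measured.

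All 33 genes passed the filter on low counts, and 0 were called at an adjusted p under 0.05 by the quasi-likelihood test of edgeR, as among all 18456 tested genes (0% called). At an unadjusted p under 0.05, Khk alone qualified, 3.03% of the 33 against 5.48% of all tested genes (2.41% as higher and 3.07% as lower). The CPM of the groups did not overlap for 6 of the 33 genes (18.2%), against 10.4% of all tested genes. With the PKCzeta label Khk, Hkdc1, Pfkp, Ldha and G6pdx were lower and Hk1 was higher in all 3 libraries, where 5.66% of tested genes did not overlap as lower and 4.72% as higher. The median log2 fold change of the 33 genes was -0.11, with 19 below 0, against a median of 0.035 over all tested genes, of which 45.7% were below 0. Without GFP 1-4 the median of the 33 was 0.061, with 14 below 0. With GFP 1-4 kept, 8 of the 33 were below 0 on log2(TPM + 1), 9 on log2(TPM + 0.1) and 15 with voom. The median of all genes was 0.14 on log2(TPM + 1), 0.23 on log2(TPM + 0.1) and 0.041 with voom. Below the all-gene median of the same setting lay 21 of the 33 in edgeR with all libraries and 16 without GFP 1-4. That number was 17 on log2(TPM + 1), 19 on log2(TPM + 0.1) and 19 with voom. The count below 0 thus depended on GFP 1-4 and on the scale, but on the TPM scales the median of all genes moved too.

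**Figure D2:**
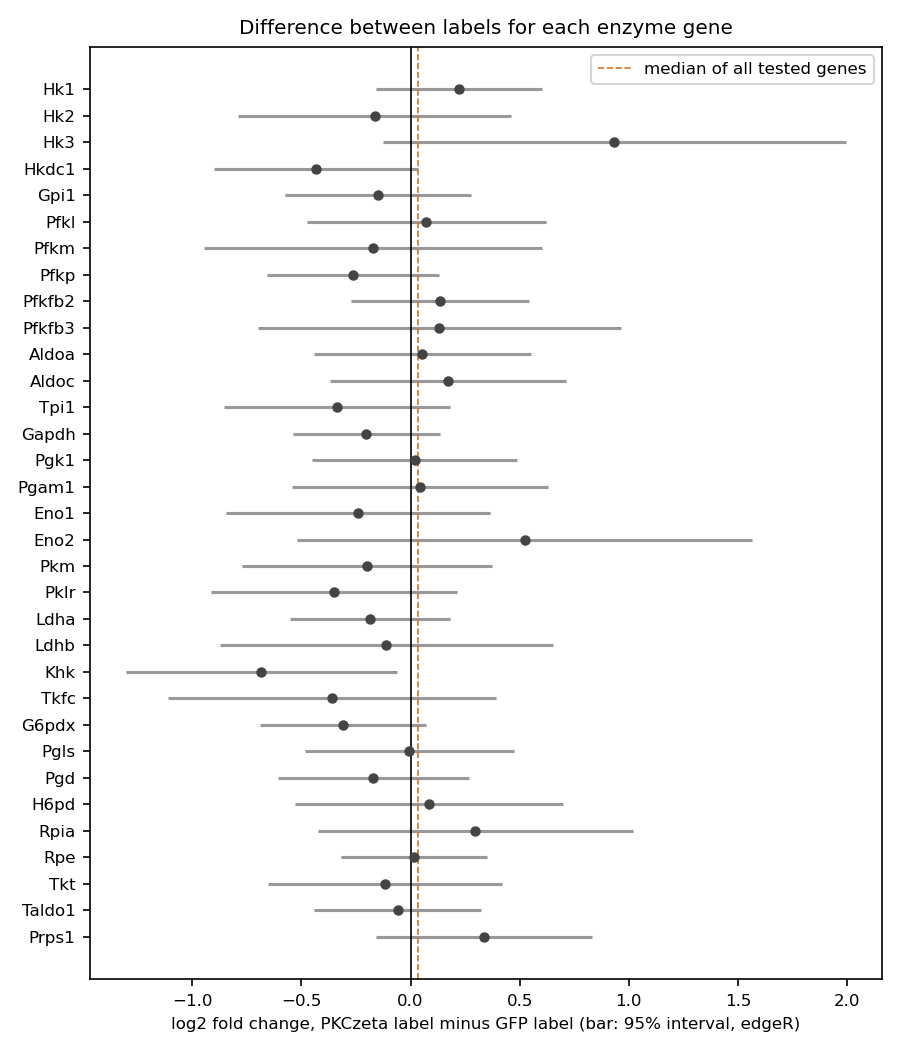
Log2 fold change of each gene, PKCzeta label minus GFP label (point), with its 95% interval from edgeR (bar); the dashed line is the median of all tested genes. Khk is the 1 gene whose interval, -1.30 to -0.06, leaves out 0.

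Among the hexokinases, Hkdc1, a hexokinase-domain gene expressed in gut epithelium, prevailed, with a mean of 77.6 TPM. Its CPM was 193, 316 and 224 against 176, 189.8 and 178, with a log2 fold change of -0.43 (SE 0.20; adjusted p = 0.917 in edgeR). GFP 1-4 was well above the rest, and the lowest GFP library stood just above the highest PKCzeta library. Hk1, the hexokinase found in most tissues, was the 1 gene higher in all 3 PKCzeta libraries, at 15.5, 14.9 and 14.8 against 17.4, 17.0 and 18.3 CPM. Its log2 fold change was 0.22 (SE 0.17, edgeR adjusted p = 0.917), a small difference within tight groups. Hk2, the insulin-responsive hexokinase, ran from 35.1 to 73.7 CPM, with both extremes under the PKCzeta label. Hk3 read 0.567, 1.01 and 0.629 against 0.690, 1.97 and 1.56 CPM. Beside it, the summed CPM of the 10 neutrophil markers was 6.13, 6.37 and 2.91 against 7.15, 52.5 and 32.3, and 6 of the 7 tested had a higher fitted level. Their part in the Hk3 values was not tested.

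Phosphoglucose isomerase (Gpi1), which links glucose 6-phosphate to fructose 6-phosphate, read 277, 390.4 and 290.2 against 321, 276 and 266 CPM, with overlapping groups. Pfkp, the platelet-type phosphofructokinase and the leading one here, read 325, 435 and 334 against 306, 286 and 318 CPM. Its groups did not overlap, yet the gap between 325 and 318 was narrow at a log2 fold change of -0.26 (SE 0.17; adjusted p = 0.917 in edgeR). Pfkl and Pfkm had log2 fold changes of 0.07 and -0.17. The PFKFB enzymes set fructose 2,6-bisphosphate, the activator of phosphofructokinase. Pfkfb2 read 64.8, 58.1 and 61.7 against 53.5, 70.5 and 78.8 CPM, with the GFP libraries inside the PKCzeta range. Pfkfb3 was lowest in GFP 1-4, at 10.5 CPM, and highest in GFP 1-1, at 31.9.

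In the later steps of glycolysis most groups overlapped. Aldoa, the aldolase of muscle and most cells, read 307, 505 and 339.8 against 383, 376 and 438 CPM. Tpi1 read 344, 593 and 378 against 335, 352 and 353, so a single library lay far above the other 5. Gapdh read 202, 197 and 178 against 185, 163 and 154, with PKCzeta 2-1 above GFP 3-1. Gapdh is often used as a reference gene, and its log2 fold change was -0.20 (SE 0.15). Pgk1, phosphoglycerate kinase, read 260.5, 339 and 227 against 238, 272 and 327 CPM, and Pgam1, phosphoglycerate mutase, 51.1, 87.0 and 56.4 against 51.6, 65.9 and 82.7. For both, GFP 1-4 and PKCzeta 4-2 were the 2 highest libraries. Eno1, the common enolase, read 286, 449.6 and 212 against 274, 259.7 and 268, and Pkm, the pyruvate kinase of most tissues, 471, 709.6 and 361 against 468, 441 and 434. In Eno1 and Pkm the GFP libraries held both the highest and the lowest value. Ldha read 824, 873 and 771 against 741, 677 and 753, without overlap, with a log2 fold change of -0.18 (SE 0.16; adjusted p = 0.917 in edgeR) in counts but 0.04 on the log2(TPM + 1) scale, on which the median of all genes was 0.14.

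The low-level isoenzymes of this stretch were Aldoc (4.89 to 7.17 CPM), Eno2 (0.618 to 2.03) and Ldhb, the heart-type lactate dehydrogenase subunit (2.24 to 4.79). The 3 had log2 fold changes of 0.17, 0.52 and -0.11 and overlapping groups. Pklr, the pyruvate kinase of liver and red cells, ran from 72.5 CPM in PKCzeta 4-2 to 150.1 in GFP 1-1, with a log2 fold change of -0.35 (SE 0.24). PKCzeta 4-2 was also the library with the lowest enterocyte marker sum.

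Fructolysis held the gene with the smallest p of the 33. Khk, ketohexokinase (chr5:30921436-30931248), phosphorylates fructose. Its CPM was 123, 165 and 138 against 109.9, 100.9 and 54.0, so all 3 PKCzeta libraries were below all 3 GFP libraries and PKCzeta 4-2 was the lowest. On the log2 scale this was a difference of -0.68 (SE 0.27, 95% interval -1.30 to -0.06, unadjusted p = 0.0345, edgeR adjusted p = 0.877). Without PKCzeta 4-2 it was -0.42, and with any 1 of PKCzeta 4-2, GFP 3-1 or GFP 1-4 left out the unadjusted p was no longer under 0.05. Nor was it under 0.05 with limma on log2(TPM + 1) or log2(TPM + 0.1), where the difference was -0.50 and -0.51. Tkfc, triokinase, which acts on the glyceraldehyde of the same route, read between 78.6 CPM in PKCzeta 4-2 and 196 in GFP 1-4, and GFP 3-1 was at 86.5, so its groups overlapped. The enterocyte marker sum was likewise lower in all 3 PKCzeta libraries and lowest in PKCzeta 4-2. Within the GFP group, however, that sum was highest in GFP 1-1 (47705), where Khk was lowest of that label (123). It was lower in PKCzeta 2-1 than in PKCzeta 4-1 (27272 against 33275), while Khk was higher (109.9 against 100.9). The part of the enterocyte markers in the Khk value was not tested.

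In the oxidative pentose phosphate arm, Pgd, 6-phosphogluconate dehydrogenase, had the highest mean TPM (53.3). It read 86.2, 121 and 83.4 against 84.6, 77.2 and 96.6 CPM, overlapping throughout. G6pdx, glucose 6-phosphate dehydrogenase, the entry enzyme of the pathway (chrX:74409483-74428880), read 42.6, 55.3 and 43.6 against 37.1, 35.9 and 41.2. Its groups did not overlap by a narrow margin, with a log2 fold change of -0.31 (SE 0.16; adjusted p = 0.917 in edgeR). Pgls, the lactonase, and H6pd, the enzyme of the endoplasmic reticulum, had log2 fold changes of -0.01 and 0.09. In the non-oxidative arm Taldo1 read 395, 512 and 417 against 448, 405 and 417 CPM. Tkt, transketolase, ran from 431 to 741, Rpia, ribose 5-phosphate isomerase, from 13.1 to 28.9, and Rpe, the epimerase, from 59.6 to 71.6. None of these separated the labels. Prps1, which makes the ribose donor of nucleotide synthesis, read 11.2, 10.2 and 8.53 against 10.8, 14.6 and 12.3, with a log2 fold change of 0.34 (SE 0.21; adjusted p = 0.917 in edgeR).

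The spread between libraries of 1 label was wide. GFP 1-4 held the highest CPM for 18 of the 33 genes and PKCzeta 4-2 for 7, and the median log2 deviation from a gene's mean was 0.36 in GFP 1-4 and 0.09 in PKCzeta 4-2. In the other 4 libraries it ran from -0.10 to -0.06. GFP 1-4 and PKCzeta 4-2 also had the lowest mitochondrial shares, and among the marker lists they had the 2 highest sums for lymphocytes (2158 and 1308 CPM, against 524 to 927 in the others) and for crypt and dividing cells (1090 and 1223, against 664 to 801). Their sums were likewise the 2 highest for mesothelium (1613 and 1670.4, against 698 to 1117) and liver (774 and 798, against 395 to 589.7), and the 2 lowest for smooth muscle (611 and 966, against 986 to 1470). Of the 6 mesothelium markers, however, 5 had lower and 1 had higher fitted levels with the PKCzeta label (median log2 fold change -1.59). Of the 10 lymphocyte markers, 8 had higher and 2 had lower fitted levels with the PKCzeta label (median 0.91), although the highest sum was in GFP 1-4. The mesothelium and lymphocyte sums therefore do not stand for each marker. The part of these lists in the deviations was not tested. Libraries under 6% mitochondrial counts were then compared alone (GFP 1-4 against PKCzeta 4-1 and 4-2). There 23 of the 33 were lower with the PKCzeta label, with a median log2 ratio of -0.29. The 18 genes highest in GFP 1-4, the only GFP library there, were bound to be among them. Between libraries above 6% (GFP 1-1 and 3-1 against PKCzeta 2-1), 17 were lower, with a median of -0.0025. In total 12 were lower in both strata, 5 higher in both and 16 opposite. The same counts over all tested genes were not made. Khk was lower in both, with log2 ratios of -1.09 and -0.24, as were Hkdc1, Pfkp, Ldha and G6pdx, and Hk1 was higher in both (0.25 and 0.20). These are the 6 genes whose groups did not overlap in CPM. Their sign was therefore bound to be the same in both strata, and that agreement adds nothing. These strata hold 1 or 2 libraries a label, and the differences within them were not tested.

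**Figure D3:**
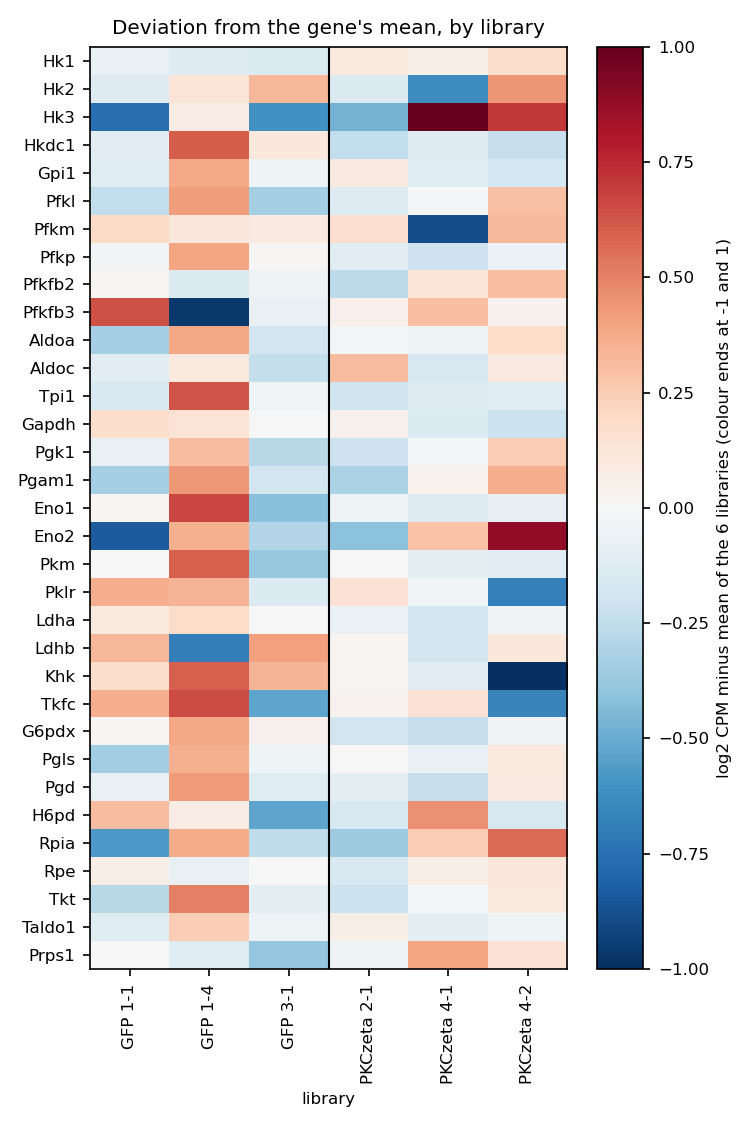
Log2 CPM of each gene (rows) in each library (columns) minus the gene's mean over the 6 libraries; the colour ends at -1 and 1, and the line divides the labels. GFP 1-4 is the highest column for 18 of the 33 genes.

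Within families, which here hold only genes of the 33, the leading isoenzyme was the same under both labels. Hkdc1 took 82.2% ± 3.5 (SD, n = 3) of summed hexokinase TPM with the GFP label and 78.5% ± 4.9 (SD, n = 3) with the PKCzeta label (exact permutation, two-sided, p = 0.4). Pfkp took 91.6% ± 0.64 against 86.0% ± 4.4 of phosphofructokinase TPM (exact permutation p = 0.2, n = 3 each). Pkm took 81.0% ± 3.4 against 83.1% ± 3.8 of pyruvate kinase TPM (exact permutation p = 0.5, n = 3 each), the rest being Pklr. Pfkfb2 held 70.0% ± 10.4 against 67.9% ± 4.0 of the sum of Pfkfb2 and Pfkfb3 (exact permutation p = 0.8, n = 3 each). Pfkfb4, which is not among the 33, had a higher mean level than either, at 31.4 TPM against 12.3 for Pfkfb2 and 5.61 for Pfkfb3. Aldoa, Eno1 and Ldha held over 98% of the summed TPM with Aldoc, Eno2 and Ldhb respectively in every library. With 3 libraries against 3 no p under 0.1 can be reached, and the Benjamini-Hochberg values over the 7 families were 0.875 or above.

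**Figure D4:**
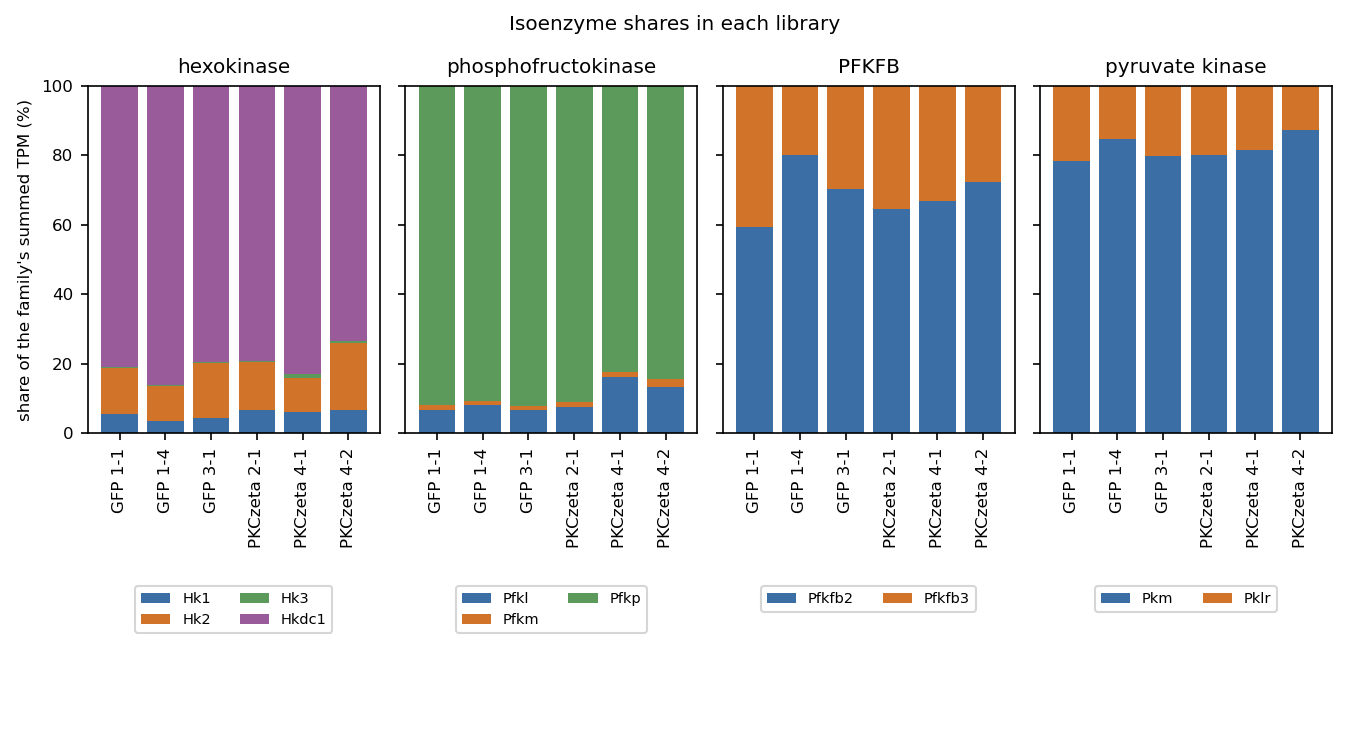
Share of each isoenzyme (colour) in its family's summed TPM (vertical, percent), 1 bar per library, for the hexokinases, phosphofructokinases, PFKFB enzymes (without Pfkfb4) and pyruvate kinases. Pfkp falls below 90% in PKCzeta 4-1 and 4-2 alone, at 82.5% and 84.5%.

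The Pfkp share needs a second value, because the deposited values of Pfkp imply another length in 2 libraries. Count and FPKM together give the transcript length used, which was 3667, 3701 and 3822 bases for Pfkp in the GFP group, against 3634, 7200 and 5207 in the PKCzeta group. For the other 32 genes the longest value was 1.01 to 1.10 times the shortest. The deposited row of Pfkp (chr13:6579874-6649060) lists 7 RefSeq transcripts, 4 of them noncoding. From counts alone, the Pfkp share was 91.0% in the GFP group, against 89.1% in the PKCzeta group, a smaller difference than in TPM.

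**Figure D5:**
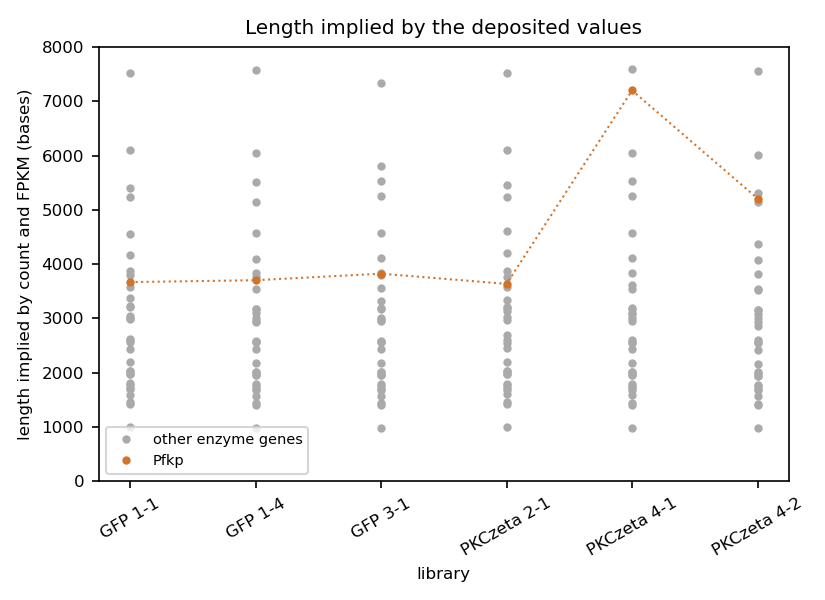
Transcript length in bases implied by the deposited count and FPKM of each gene (vertical) in each library (horizontal), orange for Pfkp and grey for the other 32 genes. Pfkp reaches 7200 bases in PKCzeta 4-1 and 5207 in PKCzeta 4-2, against 3634 to 3822 in the other 4 libraries.

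Some counts may hold reads of other genes, since the counting program and its use of strand are not given. Of the 33 genes, 6 overlap a gene with at least 10% of their own counts. Senp1 had 450% of the counts of Pfkm, Unc5a 99.3% of those of Hk3 and Ikbkg 78.4% of those of G6pdx. The other 3 were Pfkfb2 with Yod1 (27.0%), Rpe with Kansl1l (17.3%) and Tkfc with Cyb561a3 (12.4%). Copies of near-identical sequence were counted too, at 43.0% of Pgam1 for Pgam1-ps2, 264% of Prps1 for Prps1l3 and 5.02% of Eno1 for Eno1b. The values of these 8 genes with an overlap or a copy, and of Eno1, are uncertain to that extent.

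Genes around the pathway were read from lists, in which none passed an adjusted p of 0.05 in edgeR. Among 13 tested other glycolysis genes (median log2 fold change -0.19, 8 lower), the smallest p belonged to Bpgm, the bisphosphoglycerate mutase, at -0.38 (SE 0.16), Pfkfb4 at -0.45 (SE 0.21) and Galm, which interconverts the anomers of sugars, at -0.34 (SE 0.19). Lactate and pyruvate transporters went both ways (7 tested, 3 lower). Slc16a3, the lactate exporter MCT4, read 17.1, 22.0 and 16.0 against 11.8, 8.77 and 10.4 CPM, a log2 fold change of -0.83 (SE 0.21; adjusted p = 0.858 in edgeR). Emb, embigin, the partner of monocarboxylate transporters, read 12.0, 11.0 and 8.76 against 21.6, 14.4 and 18.4, or 0.77 (SE 0.23, edgeR adjusted p = 0.858). The groups did not overlap for Slc16a3 and Emb, nor for Bpgm and Galm among the glycolysis genes named above. Of all tested genes, 10.4% did not overlap. The genes named here were picked by smallest p, which favours groups that do not overlap, so that share is no measure for them. Slc5a8, a sodium-coupled monocarboxylate transporter, was at -0.61 (SE 0.27).

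Where pyruvate enters mitochondria (14 tested, median -0.06, 8 lower), Mpc1, a pyruvate carrier subunit, was at -0.20, Pdk4, a pyruvate dehydrogenase kinase, at 0.76 (SE 0.74) and Pdha1 at 0.14. The 15 genes of fructose, polyols and the carbohydrate response had a median of -0.16 (9 lower), led by the aldose reductase family gene Akr1b7 at -0.83 (SE 0.38), Mlx, the partner of the carbohydrate response factor, at -0.23 and Glyctk, glycerate kinase, at -0.37. Other pentose phosphate and ribose genes (9 tested, median -0.16, 6 lower) were led by Shpk, sedoheptulokinase, at -0.50 (SE 0.21), Prps1l3 at 0.51 and Dera at -0.22. Other NADPH sources (10 tested, median 0.09, 2 lower) were led by Aldh1l1, a folate enzyme, at -0.53 (SE 0.22), Me2, a malic enzyme, at -0.24 and Mthfd2 at 0.74 (SE 0.59). Galactose and glycogen genes (18 tested, median -0.07, 12 lower) were led by Pgm1, phosphoglucomutase, at -0.47 (SE 0.18), Phkb at -0.19 and Pygb at -0.24. Of 4 tested copies of the 33 genes, 2 were lower, with Eno1b at -0.26 and Pgam1-ps2 at 0.07.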

How the data were processed

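The authors deposited 1 table with 3 kinds of value for each gene and library. Its counts, as deposited, are unnormalised whole numbers of reads per gene. FPKM, per the file headers, corrects these for length and depth, and served here only to compute implied lengths. TPM, per the file headers, corrects for length to a fixed sum per library, and served to compare levels between genes and isoenzyme shares. The submitters' processing notes name HISAT2 and StringTie, after FastQC and Trimmomatic, and the build mm10. No source names the program that counted.

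Counts were filtered by filterByExpr, scaled by TMM and tested with edgeR 4.0.16 (quasi-likelihood, robust, two-sided, Benjamini-Hochberg over 18456 genes, threshold 0.05) in R 4.3.3, after tests on simulated data. Fold changes are PKCzeta minus GFP. The biological coefficient of variation was 0.354, so at these depths precision is limited mainly by the 3 libraries per group. Alternatives used limma 3.58.1 (log2(TPM + 1), log2(TPM + 0.1), voom), DESeq2 1.42.0, other scalings and filters, and left-out libraries; a covariate of the mitochondrial share and the comparison within mitochondrial strata were chosen after seeing the data. The members and lists were chosen with earlier results of these data known. Library values are given for the gene of highest TPM at each step and for genes whose groups do not overlap or with an unadjusted p under 0.05; from the other lists, the 3 of smallest p are named. Hk3 and some range ends were added after their values were seen. Isoenzyme shares, taken among the 33 genes, were tested by exact permutation (scipy 1.17.1). Positions and promoters are from RefSeq, matched for all 33 genes. Another composition of 1 isoenzyme family is not reported here.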

Additional observations from a re-analysis of the deposited data

How the results depend on the processing

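Under the 17 alternatives, 494 of the 561 log2 fold changes of the 33 genes kept their sign and 67 reversed. The 14 genes that never reversed were Hkdc1, Khk, Pfkp, Pklr, G6pdx, Tkfc and Tpi1 (lower) and Hk1, Hk3, Aldoc, Eno2, Pfkfb2, Prps1 and Rpia (higher). Among them, Hkdc1, Khk, Pfkp, G6pdx and Hk1 had groups that did not overlap in CPM. For these, leaving out 1 library could hardly reverse the sign. The share of all tested genes that never reversed was not computed. None of the 33 was called in any alternative. DESeq2 called 76 genes in all (40 higher, 36 lower), while edgeR and limma called 0. Beside these 0 calls, 1012 genes had an unadjusted p under 0.05 in edgeR. The cause of the reversals was not tested. The reversed log2 fold changes were Pgk1 -0.0038 and Rpe -0.0055 with DESeq2's size factors, and Pgk1 -0.0038 and Rpe -0.0055 with DESeq2. They were Pgls 0.0032 with upper quartile scaling and Pgls 0.0062 with a mean of at least 1 CPM. With voom they were Eno1 0.0076, Pkm 0.022, Pgls 0.063 and Tkt 0.017. On log2(TPM + 1), with a median of 0.14 over all genes and 0.14 over the 33, they were Gpi1 0.086, Pfkm 0.0069, Gapdh 0.0098, Eno1 0.052, Pkm 0.061, Ldha 0.041, Ldhb 0.14, Pgls 0.24, Pgd 0.065, Tkt 0.14 and Taldo1 0.17. On log2(TPM + 0.1), with medians of 0.23 and 0.17, they were Gpi1 0.087, Gapdh 0.0099, Eno1 0.053, Pkm 0.061, Ldha 0.041, Ldhb 0.18, Pgls 0.24, Pgd 0.067, Tkt 0.14 and Taldo1 0.17. With the mitochondrial share as a covariate they were Pfkl -0.033, Aldoa -0.017, Pgk1 -0.086, Pgam1 -0.10, Ldhb 0.080 and Rpe -0.00057. Leaving out 1 library at a time, the genes that reversed ranged over Hk2 -0.49 to 0.056, Gpi1 -0.27 to 0.021, Pfkl -0.064 to 0.35, Pfkm -0.40 to 0.12, Pfkfb3 -0.18 to 0.57, Aldoa -0.095 to 0.30, Pgk1 -0.10 to 0.20, Pgam1 -0.14 to 0.31, Eno1 -0.46 to 0.10, Pkm -0.39 to 0.11, Ldhb -0.39 to 0.076, Pgls -0.17 to 0.20, Pgd -0.27 to 0.023, H6pd -0.15 to 0.27, Rpe -0.031 to 0.050, Tkt -0.28 to 0.15 and Taldo1 -0.14 to 0.061. Isoenzyme shares that reversed ranged, in percentage points, over Pfkfb2 -7.39 to 2.97, Aldoa -0.13 to 0.039, Pkm -0.12 to 3.95 and Ldha -0.11 to 0.11. With group medians the shares were Aldoa 0.021 and Ldha 0.074. No paired analysis was possible because the labels share no replicate numbers between the groups. The lowest counts, and so the most counting error, were those of Hk3 and Eno2.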
